A study of Arabidopsis thaliana with 8 samples.

Results

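The comparison set germinating Arabidopsis seedlings of the mutant ahg1-1 against those of the mutant ahg3-1, both on the hormone abscisic acid (ABA). Its members are the 4 arrays whose sample titles name either mutant, of 8 arrays in the study. Each mutant had 2 arrays, numbered 1 and 2, and every array gave a log2 expression level for 22246 probe sets. A difference below is ahg1-1 minus ahg3-1 on the log2 scale, so a difference of 1 is a 2-fold higher level in ahg1-1.

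Both mutants carry mutations in related but distinct genes for protein phosphatases, are labelled hypersensitive to ABA, and were grown on 0.5 uM ABA. Columbia wild-type seedlings on the same dose of ABA (2 arrays) and on plates without ABA (2 arrays) served as reference groups. All seeds had 4 days at 4 °C and then 2 days at 23 °C on MS medium with 2% sucrose, with a daily 16 h of light and 8 h of darkness. The labels do not say whether arrays 1 and 2 of a group came from separate sowings, so p-values reflect only how far these arrays lie apart, and that spread may be technical. The labels record no stage of germination. Stage and genotype therefore cannot be told apart here, nor can fewer cells of a type be told apart from less RNA per cell in whole seedlings.

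ABA holds a ripe seed in a state of maturity and delays its germination. In its core pathway, hormone-bound receptors block most, though not all, clade A protein phosphatases 2C. The blocked phosphatases no longer silence SnRK2 kinases. The kinases activate bZIP transcription factors that switch on late embryogenesis abundant (LEA), storage and oil body genes. AHG1 and AHG3 are phosphatases of that clade, and loss of either makes seeds respond more strongly to ABA. AHG1 is known for its action in seeds, while AHG3 also acts in vegetative tissue. Whether loss of these phosphatases leaves the same imprint on the transcripts of germinating seedlings is what the comparison addresses. No probe set here is named for AHG1, AHG3 or another phosphatase 2C, which leaves the identity of the mutants unchecked in these values.

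The number of an array moved its values across the whole study. Arrays 1 and 2 deviated together in ahg1-1 and ahg3-1 with a correlation of 0.81 across probe sets, and with correlations of 0.50 to 0.84 over the 6 pairs of groups. The replicate number was therefore a term of the fit, a limma model over all 8 arrays with p-values adjusted by Benjamini-Hochberg over all probe sets. Below, a probe set is called at an adjusted p under 0.05. The standard error of a difference had a median of 0.18, and the 95% interval reached a median of 0.42 to either side.

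Few probe sets separated the mutants at this precision. Of 22246 probe sets, 1 was called (0.0045%), higher in ahg1-1. At an unadjusted p under 0.05 there were 580 probe sets (2.61%), 276 higher (1.24%) and 304 lower (1.37%) in ahg1-1. That share is below the fraction of 0.05 expected on average if no probe set differed. Passing the unadjusted threshold alone therefore does not set a gene apart. The 95% interval stayed within 2-fold in both directions for 20952 probe sets (94.2%), so for these a larger difference lay outside the interval. The median difference over all probe sets was 0.01. At least 2-fold differences within both numbers were found for 13 probe sets higher (0.0584%) and 2 lower (0.00899%) in ahg1-1. Of the 13, 4 had an annotated gene (AT3G56350, PDF2.1, AT5G07360 and AT3G48510), and both lower ones had one (AT5G54370 and AT5G35940).

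The called probe set, 253894_at, has no gene in the annotation used here. Its level was 6.36 and 7.58 in ahg1-1, 2.88 and 3.07 in ahg3-1, 2.77 and 3.15 in wild type on ABA, and 2.71 and 2.53 in wild type without ABA. Both ahg1-1 arrays stood apart from the 6 others, all of which lay close to the lowest level on the arrays (2.38 to 2.53). The difference was 4.00 ± 0.30 (SE, n = 2 per group; 95% interval 3.29 to 4.70; limma adjusted p = 0.044). The values do not show whether the 6 low arrays were above background, so the difference is one of measured values and no fold is given. It was called neither without the number as a block (adjusted p = 0.63) nor when ahg1-1 array 2 (adjusted p = 0.15), ahg3-1 array 1 (0.27), ahg3-1 array 2 (0.86) or either array of wild type on ABA (0.31) was left out, although the difference itself stayed between 3.45 and 4.55. A second unannotated probe set with a large difference, 248125_at, read 10.27 and 12.28 in ahg1-1 against 7.67 and 8.24 in ahg3-1, a difference of 3.32 ± 0.84 (SE) that was not called (adjusted p = 1.00).

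Among probe sets with an annotated gene, the 15 largest differences per direction are described next, taken from those with an unadjusted p under 0.05, the same direction within both numbers and no overlap between the mutants' arrays. Over all probe sets the arrays did not overlap in 11.3% (higher in ahg1-1) and 7.17% (lower), and 113 and 89 annotated probe sets met the whole rule. None of these 30 genes was called, with adjusted p-values of 0.139 to 1.00 for the higher and 0.164 to 1.00 for the lower genes. Their direction is fixed by the rule, and their values are given as a description.

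Of the genes higher in ahg1-1 by this rule, AT3G56350 had the largest difference, and it encodes a member of the iron/manganese superoxide dismutase family, enzymes that remove superoxide. It read 8.14 and 9.25 in ahg1-1, 6.59 and 6.59 in ahg3-1, 5.50 and 6.31 in wild type on ABA, and 5.11 and 4.29 without ABA. Both ahg1-1 arrays were the highest of the 8, and the ahg3-1 arrays lay just above wild type on ABA. The difference was 2.11 ± 0.41 (SE), a 4.31-fold higher level.

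PDF2.1, a plant defensin, which is a small cysteine-rich peptide, was next. It read 7.67 and 8.16 in ahg1-1, 5.93 and 5.78 in ahg3-1, 5.28 and 5.81 in wild type on ABA, and 3.54 and 4.00 without ABA. The ahg3-1 arrays were near those of wild type on ABA, and the ahg1-1 arrays stood above all others. Its difference of 2.06 ± 0.20 (SE, adjusted p = 0.139) was measured more tightly than that of AT3G56350. The amidase-family gene AT5G07360 read 8.55 and 9.17 in ahg1-1 against 7.16 and 7.26 in ahg3-1, with 6.43 and 6.997 in wild type on ABA, and differed by 1.65 ± 0.18 (SE, adjusted p = 0.164).

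LEA and oil body-associated genes were among the 15. The LEA gene AT3G53040, of a family of hydrophilic proteins that accumulate as seeds dry, read 10.49 and 11.64 in ahg1-1 and 9.51 and 9.34 in ahg3-1. Wild type gave 8.07 and 9.20 on ABA and 4.51 and 5.16 without it, so that both mutants lay above every wild-type array and ahg1-1 above ahg3-1, by 1.64 ± 0.31 (SE). AT5G45690 and AT1G29680, 2 members of the oil body-associated protein family, read 8.45 and 9.16, and 7.55 and 8.35 in ahg1-1. In ahg3-1 they read 7.61 and 7.06, and 6.89 and 6.32, giving differences of 1.47 ± 0.32 and 1.34 ± 0.37 (SE). A further member, AT4G18920, looked up because of these values, differed by 0.90 ± 0.31 (SE), and 2 further members (AT1G05510 and AT2G31985) were not analysed here.

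AT1G54870 and AT3G05260 encode proteins of the short-chain dehydrogenase family. AT1G54870 read 10.85 and 12.08 in ahg1-1, 10.32 and 10.14 in ahg3-1, 8.81 and 10.06 in wild type on ABA, and 4.62 and 4.65 without ABA. Its difference of 1.23 ± 0.37 (SE) was small beside its difference of 4.80 between wild type with and without ABA. AT1G54860, which encodes a predicted GPI-anchored glycoprotein and is the protein-coding gene next to AT1G54870 on chromosome 1, read 8.10 and 8.36 in ahg1-1 against 7.26 and 6.25 in ahg3-1, a difference of 1.47 ± 0.27 (SE). AT3G05260 read 5.91 and 7.83 in ahg1-1 but 5.33 and 5.19 in ahg3-1, so its difference of 1.61 ± 0.55 (SE) came mainly from ahg1-1 array 2. No other neighbours were found among the 30 genes.

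The remaining genes of the group were as follows. AT3G48510 read 9.27 and 8.41 in ahg1-1 and 8.06 and 7.13 in ahg3-1, and it differed by nearly the same amount in both numbers (1.21 and 1.28). FDH, the formate dehydrogenase of mitochondria, read 8.26 and 9.11 in ahg1-1 against 7.51 and 7.51 in ahg3-1, while wild type on ABA gave 8.13 and 7.77. Of the 15 genes, FDH had the lowest ahg3-1 mean relative to wild type on ABA, at -0.44. AT2G33520, AT1G03990 (a fatty alcohol oxidase family gene), AT5G43770 and AT2G28780 differed by 1.14, 1.02, 0.95 and 0.91, the last at levels of 4.18 and 4.10 against 3.32 and 3.14.

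**Figure D1:**
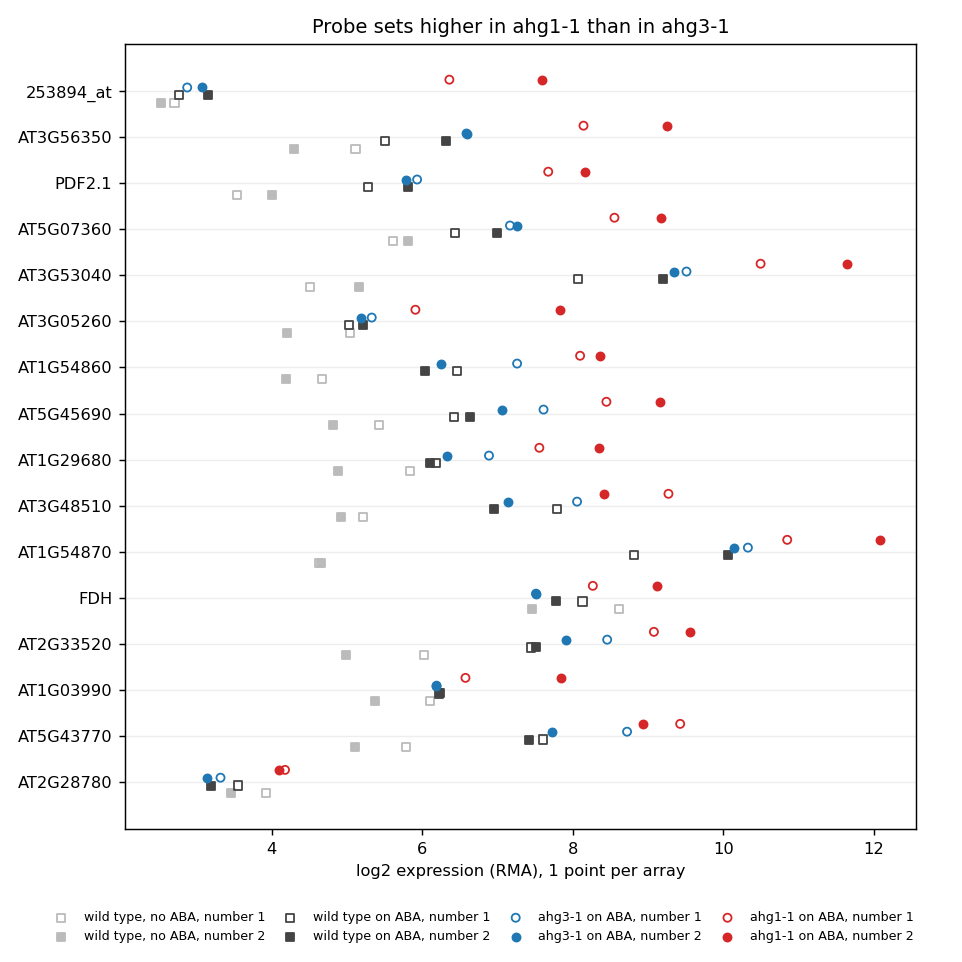
Log2 expression (x axis, 1 point per array) of the called probe set 253894_at (top row) and the 15 annotated genes highest in ahg1-1 relative to ahg3-1 among those with an unadjusted p under 0.05, the same direction in both numbers and no overlap between the mutants; red circles are ahg1-1, blue circles ahg3-1, dark squares wild type on ABA and grey squares wild type without ABA, open for number 1 and filled for number 2. Differences ran from 2.11 (AT3G56350) to 0.91 (AT2G28780), and the filled red circle is the rightmost point for 12 of the 15 genes.

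Of the genes lower in ahg1-1 by the same rule, AT5G62340 differed most, and it belongs to the family of invertase and pectin methylesterase inhibitors. It read 6.92 and 5.54 in ahg1-1, 7.78 and 7.69 in ahg3-1, 7.59 and 7.76 in wild type on ABA, and 8.04 and 8.17 without ABA. The 6 other arrays lay within a narrow range and both ahg1-1 arrays below it, with a difference of -1.50 ± 0.36 (SE). The jacalin-type lectin gene AT5G35940 read 4.57 and 4.89 in ahg1-1 and 5.90 and 6.42 in ahg3-1. Wild type read 6.17 and 6.36 on ABA and 6.06 and 6.56 without, so ahg1-1 alone lay apart, by -1.43 ± 0.16 (SE, adjusted p = 0.164).

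AT5G54370, related to LEA proteins by name, had a different order of groups. It read 7.69 and 8.65 in wild type without ABA, 5.73 and 5.30 with ABA, 5.63 and 5.36 in ahg3-1 and 4.08 and 4.01 in ahg1-1. The level in ahg3-1 thus overlapped that of wild type on ABA and the ahg1-1 arrays were lowest, with a difference of -1.45 ± 0.32 (SE). AT5G60530, also LEA-related by name, read 6.003 and 5.50 in ahg1-1 against 6.84 and 6.74 in ahg3-1.

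Chloroplast and tubulin genes were also among the 15. PSBY, a small protein of photosystem II, read 7.64 and 6.77 in ahg1-1, 8.38 and 8.16 in ahg3-1, 9.93 and 8.34 in wild type on ABA, and 12.18 and 11.44 without ABA. It was the only gene of the 15 lowered at least 4-fold by ABA in both numbers of wild type, and it differed between the mutants by -1.06 ± 0.29 (SE). AT1G74470, a geranylgeranyl reductase that supplies chlorophyll and tocopherol synthesis, read 9.47 and 8.39 in ahg1-1 and 10.13 and 9.57 in ahg3-1. Wild type read 11.12 and 9.94 on ABA and 12.02 and 11.75 without ABA. The chloroplast gene PIFI differed by -0.81 ± 0.20 (SE).

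TUB5, a beta-tubulin of microtubules, read 8.56 and 7.85 in ahg1-1 and 9.03 and 9.25 in ahg3-1, while wild type gave 8.99 and 8.95 on ABA and 9.23 and 9.50 without. Its ahg3-1 arrays lay among the wild-type arrays and the ahg1-1 arrays below all of them, by -0.94 ± 0.24 (SE). The multicopper oxidase-like gene sks15, the pectate lyase family gene AT1G04680 and the TRAF-like family gene AT5G26280 differed by -1.08, -0.90 and -0.90. AT1G48330, AT5G05140 (a transcription elongation factor family gene), BZIP61 (a bZIP transcription factor) and AT5G07820 had differences of -0.96 to -0.80. Among probe sets without an annotated gene, 264147_at (-1.36) and 260869_at (-1.23) were lower by the same rule.

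**Figure D2:**
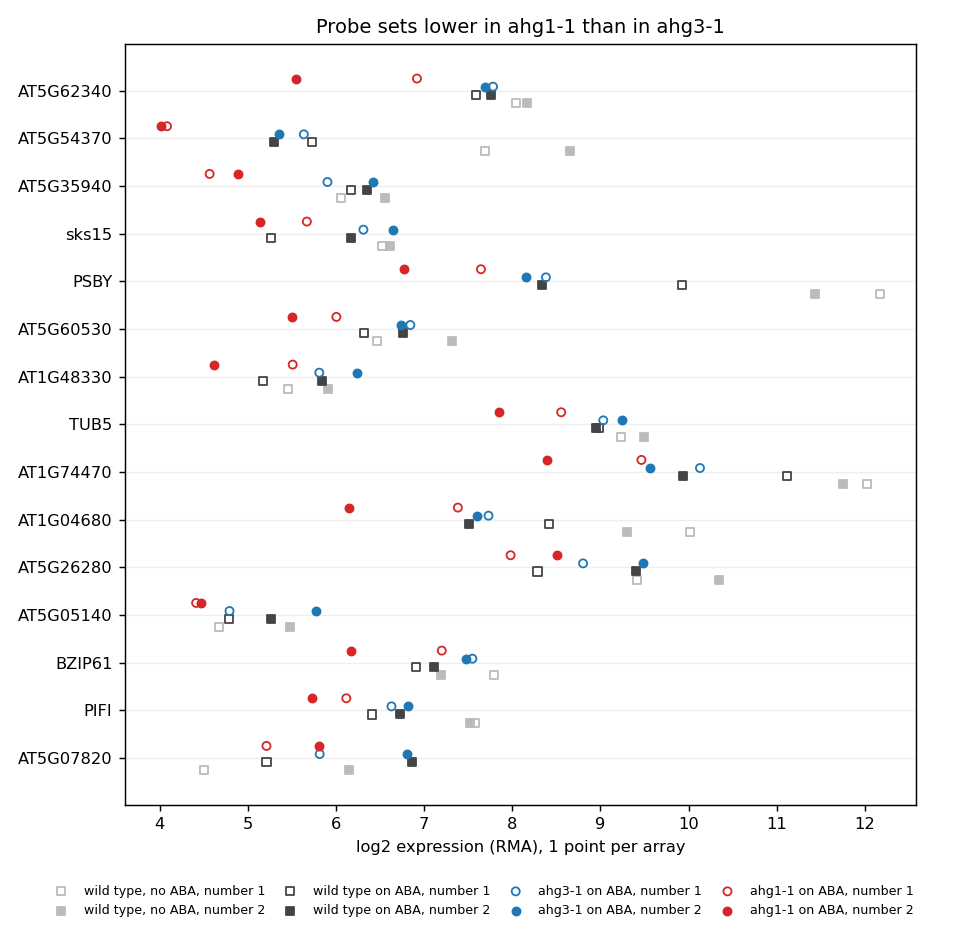
Log2 expression (x axis, 1 point per array) of the 15 annotated genes lowest in ahg1-1 relative to ahg3-1 among those with an unadjusted p under 0.05, the same direction in both numbers and no overlap between the mutants; red circles are ahg1-1, blue circles ahg3-1, dark squares wild type on ABA and grey squares wild type without ABA, open for number 1 and filled for number 2. Differences ran from -1.50 (AT5G62340) to -0.80 (AT5G07820), and for AT5G62340, AT5G35940 and TUB5 the ahg3-1 points lie near wild type.

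The levels of the wild-type arrays were no part of the rule for these 30 genes, although those arrays enter the spread behind each p. Of the 15 genes higher in ahg1-1, 12 were higher on ABA than without it within both numbers of wild type, which held for 38.5% of all probe sets, and 3 were raised at least 4-fold. Of the 15 lower genes, 12 were lower on ABA within both numbers, against 26.3% of all probe sets. For the higher genes the median of ahg1-1 minus wild type on ABA was 1.84 (0.74 to 2.79), and the median of ahg3-1 minus wild type on ABA was 0.50 (-0.44 to 0.81). For the lower genes these medians were -0.77 (-1.92 to -0.32) and 0.17 (-0.86 to 0.76). These sets of differences share the wild-type arrays, and the choice of genes by the mutant difference pulls them apart, so they are given side by side without a test.

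Number 2 carried the larger part of the differences. Within number 2 the difference was larger than within number 1 for 15 of 15 higher genes (medians 1.95 and 0.84) and for 14 of 15 lower genes (medians -1.34 and -0.64), AT5G54370 being the exception. Across all probe sets the standard deviation of the differences was 0.30 within number 2 and 0.24 within number 1. The levels themselves also spread more widely on the arrays of number 2 (SD 2.01 to 2.06) than on those of number 1 (1.91 to 1.97). The part of this wider scale in the differences was not tested. The differences of the numbers, which share no array, correlated across probe sets with r = 0.24 (rho = 0.13), and 54.1% of probe sets had the same sign in both. This is a description over probe sets of the same 4 arrays, which are not independent points. Each such difference is between 1 array and 1 other and has no test of its own.

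**Figure D3:**
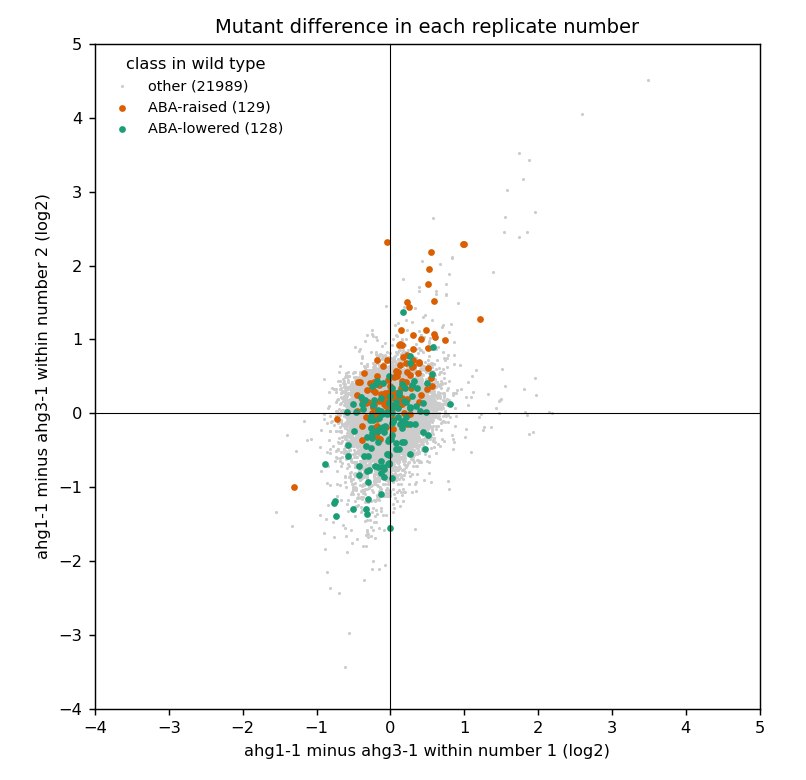
Difference ahg1-1 minus ahg3-1 (log2) within number 1 (x axis) and within number 2 (y axis) for all 22246 probe sets; orange points are the 129 probe sets raised and green points the 128 lowered at least 4-fold by ABA in both numbers of wild type. The vertical spread (SD 0.30) exceeds the horizontal one (SD 0.24), most orange points lie above 0 on the y axis, and a thin arm of grey points runs along the x axis to the right.

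Genes that respond to ABA were then classed on the 4 wild-type arrays alone, which share no array with the mutant difference. In 129 probe sets (0.58%) the level was at least 4-fold higher on ABA within both numbers, and in 128 (0.575%) at least 4-fold lower. The ABA-raised probe sets had a median level of 5.46 in wild type without ABA, 9.59 in wild type on ABA, 10.05 in ahg3-1 and 10.31 in ahg1-1. Their median difference between the mutants was 0.14, against 0.01 over all probe sets, with 0.04 for number 1 and 0.30 for number 2. Of the 129, 98 (76.0%) were higher in ahg1-1, against 53.3% of all probe sets, and 68 (52.7%) were higher within both numbers, against 29.8%. At an unadjusted p under 0.05, 22 were higher and 1 lower, and 0 were called. Single probe sets ranged from -1.15 to 1.64, and for 88 of 129 the 95% interval lay within 2-fold.

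The ABA-lowered probe sets had a median level of 9.25 without ABA, 6.17 in wild type on ABA, 5.30 in ahg3-1 and 5.29 in ahg1-1. Their median difference was -0.12 (-0.04 within number 1 and -0.14 within number 2), 46 of 128 (35.9%) were higher in ahg1-1, and 55 (43.0%) were lower within both numbers, against 24.3% of all probe sets. At an unadjusted p under 0.05, 2 were higher and 10 lower, and 0 were called. Only 62 of the 128 intervals lay within 2-fold (48.4%), against 94.2% of all probe sets. The median turned with the array left out: it was 0.06 without ahg1-1 array 1, 0.12 without ahg3-1 array 2, -0.31 without ahg1-1 array 2 and -0.42 without ahg3-1 array 1. With a threshold of 3 in place of 2 on the log2 scale it was 0.12 over 23 probe sets. The ABA-raised median kept its sign over the arrays left out, between 0.015 without ahg3-1 array 2 and 0.39 without ahg3-1 array 1.

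The LEA and dehydrin list had 37 measured genes, which shield membranes and proteins when cells dry. None was called, 5 were higher and 2 lower at an unadjusted p under 0.05 (1.24% and 1.37% of all probe sets), and the median difference was 0.10. Within both numbers 14 (37.8%) were higher and 9 (24.3%) lower, against 29.8% and 24.3% of all probe sets. Without ahg3-1 array 2 the median was -0.076. The 19 of them raised at least 4-fold by ABA in wild type had medians of 11.32 in both mutants and 10.49 in wild type on ABA, and their median difference was also 0.10. AT3G02480 read 13.40 and 13.87 in ahg1-1 against 13.41 and 13.82 in ahg3-1, with a difference of 0.02 ± 0.31 (SE). These levels lie at the top of the arrays, whose highest values were 13.49 to 13.87. A difference may not show there, and whether the signal was saturated was not tested. LEA18 differed by 0.04 with a wide error of 0.41 (SE). LEA4-5 read 12.84 and 12.99 against 12.29 and 12.51, differing by 0.52 ± 0.21 (SE). Beside AT3G53040, the members AT3G22490 (1.25 ± 0.55, SE), M17 (1.14 ± 0.48) and AT2G23110 (0.81 ± 0.31) had the highest differences and AT5G60530 (-1.04 ± 0.30) the lowest. AT5G54370 (-1.45 ± 0.32), also LEA-related by name, was not in the list and is not part of its counts. M17 overlapped between the mutants, at 8.64 and 9.09 in ahg1-1 and 8.68 and 6.77 in ahg3-1. AT3G02480, LEA18, LEA4-5, AT3G22490, M17 and AT2G23110 were named after their values were seen.

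COR15A, a cold-induced chloroplast protein of the LEA type, read 5.37 and 5.38 in ahg1-1 and 4.86 and 4.66 in ahg3-1, a difference of 0.62 ± 0.20 (SE). The cold and drought list it belongs to had 6 genes with a median of 0.16 and no call, of which COR15B had the lowest difference (-0.27 ± 0.16, SE).

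**Figure D4:**
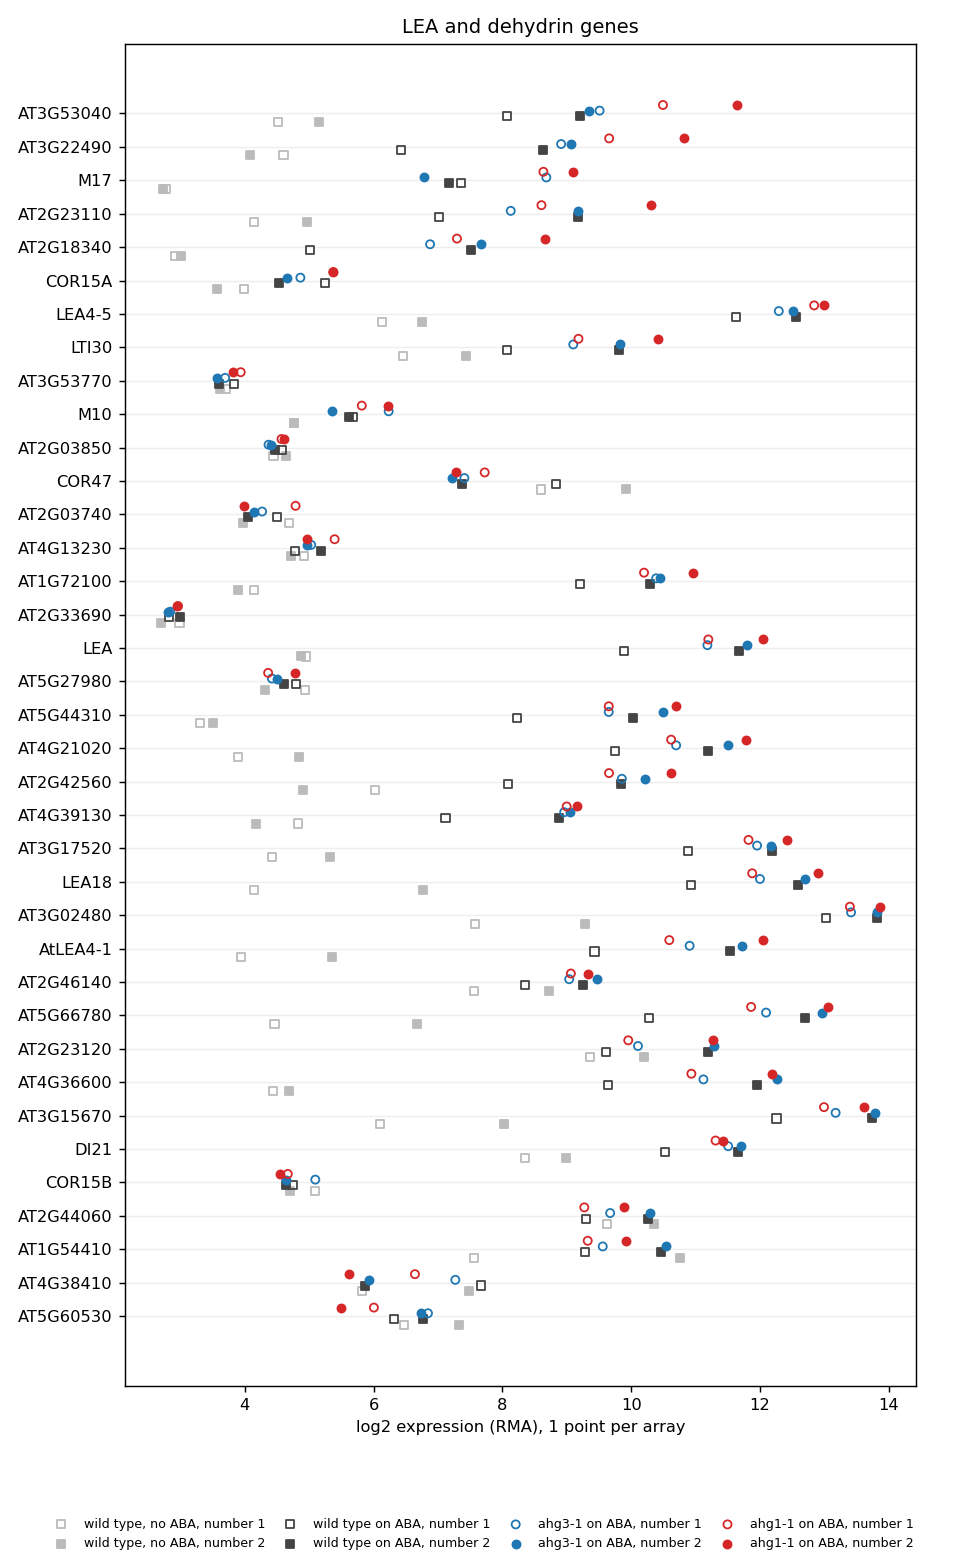
Log2 expression (x axis, 1 point per array) of the 37 LEA and dehydrin genes, ordered by ahg1-1 minus ahg3-1; red circles are ahg1-1, blue circles ahg3-1, dark squares wild type on ABA and grey squares wild type without ABA, open for number 1 and filled for number 2. Differences ran from 1.64 (AT3G53040) to -1.04 (AT5G60530), and 29 of the 37 genes differed by less than 0.5.

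The storage and oil body list had 9 genes, cupins that store nitrogen and oleosins that coat oil bodies, with a median difference of 0.17 and a range of -0.01 to 0.46, and for 8 of 9 the 95% interval lay within 2-fold. The median was -0.024 without ahg3-1 array 2. The oil body-associated genes AT5G45690 (1.47), AT1G29680 (1.34) and AT4G18920 (0.90) were not in this list. OLEO3, an oleosin, read 11.93 and 12.22 in ahg1-1 and 11.55 and 11.67 in ahg3-1 (0.46 ± 0.18, SE), and it was the only member with an unadjusted p under 0.05. Wild type read 10.84 and 11.57 on ABA and 5.65 and 6.05 without, so OLEO3 was far above the untreated level in all 3 genotypes on ABA. AT4G36700, a cupin family gene, read 9.69 and 10.83 against 9.88 and 10.11, so the mutants overlapped. Of oil reserve breakdown, 4 genes had a median of -0.14. ICL, the isocitrate lyase that turns stored oil into sugar, read 13.31 and 13.18 in ahg1-1 and 13.42 and 13.30 in ahg3-1, near the highest values on the arrays.

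The nuclear photosystem and light-harvesting list had only 8 measured genes, although 43 loci were written for it. All 8 were lower on all 4 mutant arrays than on either array of wild type without ABA. Their median level was 11.92 in wild type without ABA, 8.67 in wild type on ABA, 7.31 in ahg3-1 and 6.74 in ahg1-1. The median difference was -0.33 (-0.26 and -0.49 within the numbers), 5 were lower (62.5%) and 2 higher within both numbers, against 24.3% and 29.8% of all probe sets, and 0 were called. No interval of the 8 lay within 2-fold, and the median was 0.049 without ahg3-1 array 2. PSAE-1, a subunit of photosystem I, read 7.29 and 6.12 in ahg1-1 and 8.05 and 7.31 in ahg3-1, a difference of -0.97 ± 0.42 (SE; 95% interval -1.97 to 0.02). Wild type read 12.79 and 12.23 without ABA and 10.21 and 7.69 on ABA, and these unequal gaps between the numbers enter the error of PSAE-1. LHCB4.1, a light-harvesting protein of photosystem II named after its values were seen, went the other way at 8.01 and 7.58 against 7.82 and 7.41.

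The Calvin cycle and chlorophyll synthesis list had 10 genes, a median of -0.11 (0.034 without ahg1-1 array 1) and 0 calls. The geranylgeranyl reductase gene AT1G74470 (-0.92) was not in this list. CHLI2, a subunit of the magnesium chelatase of chlorophyll synthesis, read 5.84 and 6.33 in ahg1-1 and 6.12 and 7.09 in ahg3-1 (-0.52 ± 0.18, SE). ATPC1, the gamma subunit of the chloroplast ATP synthase, differed by -0.50 ± 0.21 (SE). RCA, rubisco activase, named after its values were seen, read 7.92 and 6.60 against 7.97 and 6.58 and so differed by -0.02 ± 0.55 (SE), while wild type read 10.56 and 7.24 on ABA.

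Genes of the plastid genome (69 measured) had a median difference of -0.13, with 35 lower and 10 higher within both numbers, that is 50.7% and 14.5% against 24.3% and 29.8% of all probe sets. The median was 0.041 without ahg1-1 array 1. None was called, and 3 were lower at an unadjusted p under 0.05: psbM (-0.43 ± 0.16, a photosystem II subunit), ndhC (-0.36 ± 0.15, an NADH dehydrogenase subunit) and rps19 (-0.89 ± 0.36, a ribosomal protein). In rps19 the numbers differed more than the mutants, with 8.00 and 11.45 in ahg1-1 and 9.28 and 11.96 in ahg3-1. The mitochondrial genome list went the other way, with a median of 0.14 over 16 genes, 10 higher (62.5%) and 0 lower within both numbers, and 0 at an unadjusted p under 0.05. Its genes were named from the platform annotation alone.

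**Figure D5:**
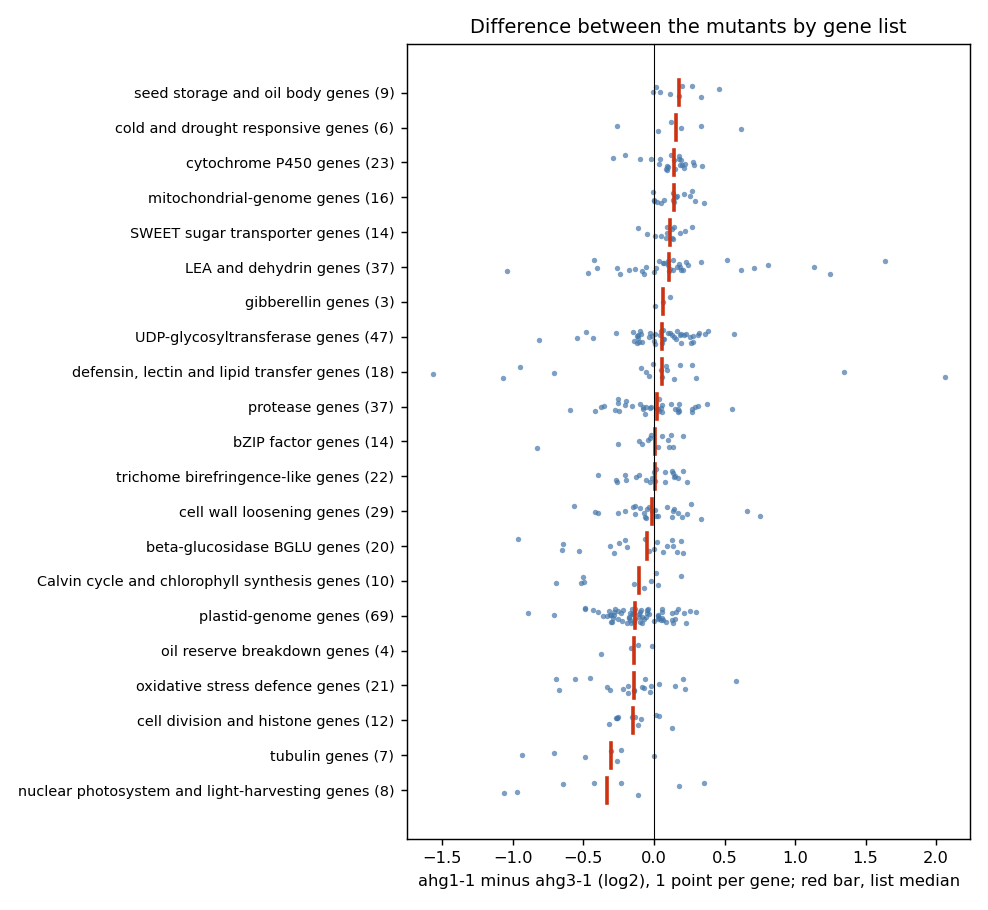
Difference ahg1-1 minus ahg3-1 (log2, x axis) for the genes of 21 lists with at least 3 measured members (y axis, number of genes in parentheses); each point is 1 gene and the red bar is the list's median. Medians run from 0.17 (seed storage and oil body genes) to -0.33 (nuclear photosystem and light-harvesting genes), and the widest spread is that of the defensin, lectin and lipid transfer genes, from -1.57 to 2.06.

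Growth genes were compared last. The tubulin family was added to the lists after the values were seen, those of TUB5 included, so its counts are only a description. Its 7 genes had a median of -0.31, with 0 called. Within both numbers 6 (85.7%) were lower and 0 higher, against 24.3% and 29.8% of all probe sets. TUB7 (-0.49 ± 0.18, SE) and TUB1 (-0.71 ± 0.33, SE) followed TUB5, and the median was -0.09 within number 1 and -0.53 within number 2, staying between -0.55 and -0.15 in all 14 settings tried. Cell division and histone genes (12) had a median of -0.15 with every interval within 2-fold. Cell wall loosening genes (29) had a median of -0.02, and 1 of them, the xyloglucan endotransglucosylase gene XTH19 (-0.57 ± 0.23, SE), was lower at an unadjusted p under 0.05. The gibberellin receptors GID1A, GID1B and GID1C, which relieve repression of germination, differed by 0.01, 0.11 and 0.06, each interval within 2-fold.

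The ABA pathway list had 1 measured gene, EEL, a bZIP factor that acts on LEA promoters in seeds. It read 7.32 and 7.88 in ahg1-1 and 7.38 and 7.78 in ahg3-1, a difference of 0.02 (95% interval -0.40 to 0.44). The bZIP family (14 genes), also added after the values were seen, had a median of 0.01. BZIP61 was its only member at an unadjusted p under 0.05.

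Defence and stress genes went both ways. The defensin, lectin and lipid transfer list (18 genes) ranged from -1.57 (JAL22) to 2.06 (PDF2.1), with a median of 0.05. The jacalin-type lectin gene AT5G35940 (-1.43) was not in this list. LCR67, a defensin-like peptide, read 7.88 and 10.85 in ahg1-1 and 7.08 and 8.96 in ahg3-1 (1.34 ± 0.39, SE), and the jacalin-type lectin JAL33 read 10.12 and 8.63 against 10.70 and 9.96 (-0.95 ± 0.34, SE). The mutants overlapped in both genes, while the arrays of number 2 differed more than those of number 1. The oxidative stress list (21 genes) had a median of -0.14. In it were CCS, the copper chaperone of superoxide dismutase, at 0.58 ± 0.21 (SE) and the glutathione transferase GSTU26 at -0.69 ± 0.28 (SE). AT3G56350 (2.11), of the superoxide dismutase family, was not in this list.

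Several larger gene families are given next, all but the proteases added after the values were seen. Over all probe sets, 2.61% passed the unadjusted threshold, and the counts below are only a description. The 47 UDP-glycosyltransferases had a median of 0.06, with UGT88A1 (-0.81 ± 0.26, SE) and UGT85A2 (-0.55 ± 0.22, SE) lower at an unadjusted p under 0.05. The 23 cytochrome P450 genes had a median of 0.14, with 0 at an unadjusted p under 0.05. Within both numbers 15 (65.2%) were higher and 2 (8.70%) lower, against 29.8% and 24.3% of all probe sets. Their levels were low, with medians of 4.27 in ahg1-1 and 4.06 in ahg3-1. The 25th percentile of the mean levels of all probe sets was 4.61. Proteases (37 genes, median 0.02), beta-glucosidases (20, -0.05), SWEET transporters (14, 0.11) and trichome birefringence-like genes (22, 0.01) held 2 genes at that level in all, both proteases, 1 of them the carboxypeptidase-like scpl21 (0.55 ± 0.15, SE). No member of any list was called.

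Genes listed as markers of single tissues were few. The root hair expansins EXPA18 and EXPA7 read 7.38 and 5.23, and 7.71 and 5.53 in ahg1-1, and 5.95 and 5.16, and 6.61 and 5.31 in ahg3-1. Their median difference was 1.27 within number 1 and 0.15 within number 2, where both mutants and wild type on ABA (5.14 and 5.82) lay low. The pigment genes BAN (-0.19 ± 0.26, SE) and DFR (-0.09 ± 0.86, SE), listed for the seed coat, overlapped between the mutants. Whether they mark the seed coat in these seedlings was not tested. No endosperm marker was measured by a named probe set. The part of tissue makeup in the differences was not tested.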

How the data were processed

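Total RNA of whole seedlings was hybridised to 1-colour oligonucleotide arrays, 1 per sample (16 ug of RNA for cDNA and 30 ug of cRNA per array, per the labels' protocols). The deposited log2 values were made by the authors with RMA, per the submitters' processing notes, which corrects background, normalizes arrays to each other and summarises probes. Its version is not given in the sources used here. Array medians lay between 5.91 and 5.97, and 0 arrays were identical. Signal over background is not in the values, and precision is limited by having 2 arrays a group.

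Sample titles gave the groups and numbers. Free-text descriptions, which repeat untreated wild type for all samples, were not used. limma 3.58.1 (R 4.3.3) fitted group means and the replicate number to the 8 arrays, with two-sided p-values, Benjamini-Hochberg adjustment and no filter. The numbers were taken to pair arrays because deviations correlated in all 6 group pairs (0.50 to 0.84). The method was tested on simulated data with independent noise around the same model. In those data the number acted alike in all groups, so the simulation does not cover number effects that differ between groups.

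Of the probe sets, 13072 had 1 gene in the platform annotation (12998 in the TAIR10.1 gene table), 503 several and 8671 none. Most lists were built from gene symbols and synonyms, with loci written in for some. These were 53 loci for LEA and dehydrin, 43 for nuclear photosystem, 26 for Calvin cycle and 24 for storage genes. Genes known only by a locus can thus be missing from a list. Only genes with an annotated probe set of their own were measured, so shares and medians describe those alone. Lists keep, per locus, the probe set with the highest mean. Named are called probe sets, the 15 largest differences per direction as described, up to 3 list members with the smallest p, and up to 2 unannotated probe sets per direction. The comparison, lists and members were chosen with earlier results of these data known. After the values were seen, 7 gene families were added: tubulin, bZIP, cytochrome P450, UDP-glycosyltransferase, beta-glucosidase, SWEET and trichome birefringence-like genes. Their shares beside those of all probe sets are descriptions only. Lists of cytosolic ribosomal protein, protein phosphatase 2C, endosperm and aquaporin genes had 0 measured members. Alternatives were no replicate block, the 4 mutant arrays alone, cyclic loess, median centring, leaving out the dimmest 25%, a variance trend, each array left out, and other class thresholds.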

Additional observations from a re-analysis of the deposited data

Results flagged for a closer look

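The probe set 253894_at differed between the mutants under the same treatment by 4.00 on the log2 scale, the only probe set for which the test of the difference itself passed the threshold (limma adjusted p = 0.044, higher in ahg1-1 in 2 of 2 numbers). Its level in ahg3-1 lay with the wild-type arrays near the lowest values of the study. The gene it measures is not annotated here, and the cause of the difference was not tested.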

How the results depend on the processing

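The count of called probe sets was 1. It was 1 with cyclic loess, median centring and a variance trend, 0 with no replicate block (92 at an unadjusted p under 0.05, lowest adjusted p 0.63), 0 without the dimmest 25% (which removed 253894_at itself), and 16 with the 4 mutant arrays alone, where 1 residual degree of freedom is left. Those 16 were 13 higher and 3 lower in ahg1-1, and included AT3G56350, PDF2.1, AT5G07360, AT3G48510, AT5G54370 and AT5G35940. Leaving out 1 array in turn gave 0 to 4 calls, and the lone array left in a group was assumed to vary like the others. The 4 calls came without either array of wild type without ABA and included PDF2.1 (adjusted p = 0.049), and 0 came without either array of wild type on ABA, ahg1-1 array 2 or either ahg3-1 array. The replicate numbers pair the arrays, and dropping the block raised the median standard error from 0.18 to 0.28. The 30 annotated genes described by rule kept their direction in each setting, except that 1 was not tested without the dimmest 25% (29 of 29 kept it).

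The ABA-raised median ran from 0.015 without ahg3-1 array 2 to 0.39 without ahg3-1 array 1. The ABA-lowered median ran from -0.42 to 0.12 over the arrays left out (0.06 without ahg1-1 array 1, -0.31 without ahg1-1 array 2), and was 0.12 at the class threshold of 3. Of 21 lists, 12 had a median that changed sign in at least 1 of 14 settings. Among single genes near 0, leaving out 1 array turned the sign, with these ranges: AT4G36700 -0.047 (and -0.024) to 0.58, EEL -0.18 (and -0.072) to 0.21, GID1A -0.22 (and -0.056) to 0.24, GID1B -0.21 to 0.43, GID1C -0.24 to 0.37, Prx37 -0.22 (and 0.00182) to 0.083, BAN -0.64 to 0.26, DFR -0.57 (and 0.015) to 0.40 and bZIP52 -0.57 to 0.058. The cause was not tested. For a probe set with the median 95% interval, a difference under 0.42 could not be told from 0, while single probe sets had narrower or wider intervals.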

Other observations

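A set of genes that held the root hair expansins differed more between the mutants within number 1 than within number 2. Chosen after the values were seen, 32 probe sets were at least 2-fold higher in ahg1-1 within number 1 and differed by less than 0.7 on the log2 scale within number 2, 13 of them with an annotated gene. Their median level in number 1 was 8.96 in wild type on ABA, 7.70 in ahg1-1 and 6.15 in ahg3-1. In number 2 the medians were 4.75, 4.59 and 4.50, while wild type without ABA stood at 8.44 and 8.57. In 29 of the 32, wild type on ABA was at least 4-fold higher in number 1 than in number 2. The class III peroxidase genes AT4G26010, AT3G49960, AT1G34510, AT1G30870 and AT4G30170 were among them, enzymes of the cell wall that are active in roots, as were EXPA7 and EXPA18. AT4G26010 read 10.12 in wild type on ABA, 8.83 in ahg1-1 and 6.88 in ahg3-1 in number 1, but 4.05, 3.89 and 3.41 in number 2, and 8.91 and 8.97 without ABA. AT3G49960 read 9.74, 8.12 and 6.64 in number 1 and 4.98, 4.42 and 4.24 in number 2. These values are those of single arrays with no test.

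By the same rule with the number or direction changed, 5 probe sets were lower in number 1, 51 higher in number 2 and 143 lower in number 2. The 143 had a median of 6.10 in ahg1-1, 7.42 in ahg3-1 and 7.52 in wild type on ABA in number 2, and of 7.72, 7.92 and 8.75 in number 1.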
